A study of Mus musculus with 6 samples.

Results

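The genes described are 9 long noncoding RNAs, of 23951 genes in the expression table, taken as a list of symbols with no threshold on their values. They are the nuclear RNAs Malat1 and Neat1, the Myc neighbour Pvt1, and the snoRNA host genes Gas5, Snhg1, Snhg3, Snhg6, Snhg8 and Snhg12. RNA was sequenced from 3 untreated mouse melanoma cell lines grown in the same medium, with 2 libraries each. B16-F1 is a line of low metastatic potential from a public collection. B16-F1R2 came from a lymph node metastasis, and B16-F1R2L from a lung metastasis of cells that had already formed a lymph node metastasis. A different laboratory supplied both metastatic lines, and the effects of line and of supplier cannot be told apart. Each group is a single cell line, and the sources used here do not say whether its 2 libraries came from separate cultures; p-values may then measure technical spread only. The melanocyte markers Mitf, Sox10, Pmel, Dct, Tyrp1, Tyr and Mlana reached 1 FPKM in every library, but 6 of these 7 were called lower in each metastatic line relative to B16-F1 in the limma fit described below, with a summed level of 14970 and 15007 FPKM for B16-F1 and 7909 to 8933 FPKM in the metastatic lines. Their largest difference was that of Tyr, the rate-limiting enzyme of pigment synthesis, at -3.70 and -2.99 on the log2 scale. Mitf, the regulator of the melanocyte lineage, was the exception: it was not called in B16-F1R2 and was 0.40 higher in B16-F1R2L (adjusted p = 0.0032). The summed markers of leukocytes, endothelium, epithelium and fibroblasts stayed at or below 2.67 FPKM in each library. Of the 6 leukocyte markers with a row, 4 were listed at 0 in all libraries, and of the 3 fibroblast markers 2. The endothelial marker Pecam1 was listed at 0 in both B16-F1 libraries and was called higher in both metastatic lines, at 0.752 to 1.26 FPKM, whereas Prox1 of the same list was called lower in both, from 1.66 and 1.63 FPKM for B16-F1 to 0.790 to 1.16 FPKM, and Cdh5 and Lyve1 were at 0 throughout. The part of these marker changes in the results below was not tested.

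Long noncoding RNAs of this group work mainly inside the nucleus. Malat1 gathers in nuclear speckles, the stores of splicing factors, and Neat1 is the scaffold of paraspeckles, bodies that form around it where it is transcribed. The snoRNA host genes are transcribed mainly so that small nucleolar RNAs can be cut from their introns, and these small RNAs guide the chemical modification of ribosomal RNA. The spliced host RNA that remains can begin with a run of pyrimidines, as ribosomal protein mRNAs do, and is often removed by nonsense-mediated decay when it is translated.

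The values are FPKM, that is, fragments scaled by transcript length in kilobases and by 1000000 mapped reads, so levels of different genes can be compared per length. Depth was estimated at 12300000 to 14300000 reads per library, from genes with 1 annotated transcript whose lowest values were taken as 1 read. On that estimate the 7 genes with an annotated length received from about 107 reads, for Pvt1, to about 14053, for Neat1. Each was taken at its longest annotated transcript, so reads of genes with shorter forms may be overstated. All 9 genes reached 1 FPKM in every library and passed the filter on low values. Differences between lines are given on the scale log2(FPKM + 0.1) with the standard error and the adjusted p from limma, an empirical Bayes linear model fitted to 11379 genes, with Benjamini-Hochberg adjustment. A difference was called at an adjusted p under 0.05. In bulk RNA, less RNA per cell and fewer cells holding it cannot be told apart.

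The nuclear long noncoding RNAs and snoRNA hosts were mostly higher in the metastatic lines. In B16-F1R2 against B16-F1, 7 of the 9 were called higher and 0 lower, where 28.2% of all tested genes were called higher and 27.2% lower. In B16-F1R2L against B16-F1, 5 of 9 were called higher and 0 lower, beside 29.5% and 27.1% of all tested genes. At an unadjusted p under 0.05 in limma, 0 of the 9 were lower in either comparison as well. Between the metastatic lines, 1 was called higher in B16-F1R2L and 2 lower, beside 12.1% and 10.5%. Of the calls over all genes, 52.1% were higher in B16-F1R2L against B16-F1 and 53.7% against B16-F1R2; with each library rescaled to the same sum these shares were 66.6% and 81.0%, and 0 of the 9 genes were then called lower in B16-F1R2L relative to B16-F1R2, although 6 of them still lay below 0, Gas5 at -0.21 and Snhg3 at -0.34. The median difference of the 9 genes was 0.60 in both comparisons with B16-F1, where that of all tested genes was 0.0046 and 0.017. Both of these comparisons use the same B16-F1 libraries. Libraries did not overlap for 8 of the 9 genes in each comparison with B16-F1, beside 80% and 80.8% of all tested genes. Between the metastatic lines this held for 5 of 9, beside 65.2%. A lack of overlap, as given below for single genes, therefore does not set a gene apart. The genes did not form 1 pattern: Neat1 rose in B16-F1R2L alone of the metastatic lines, and Snhg8 was called in no comparison.

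**Figure D1:**
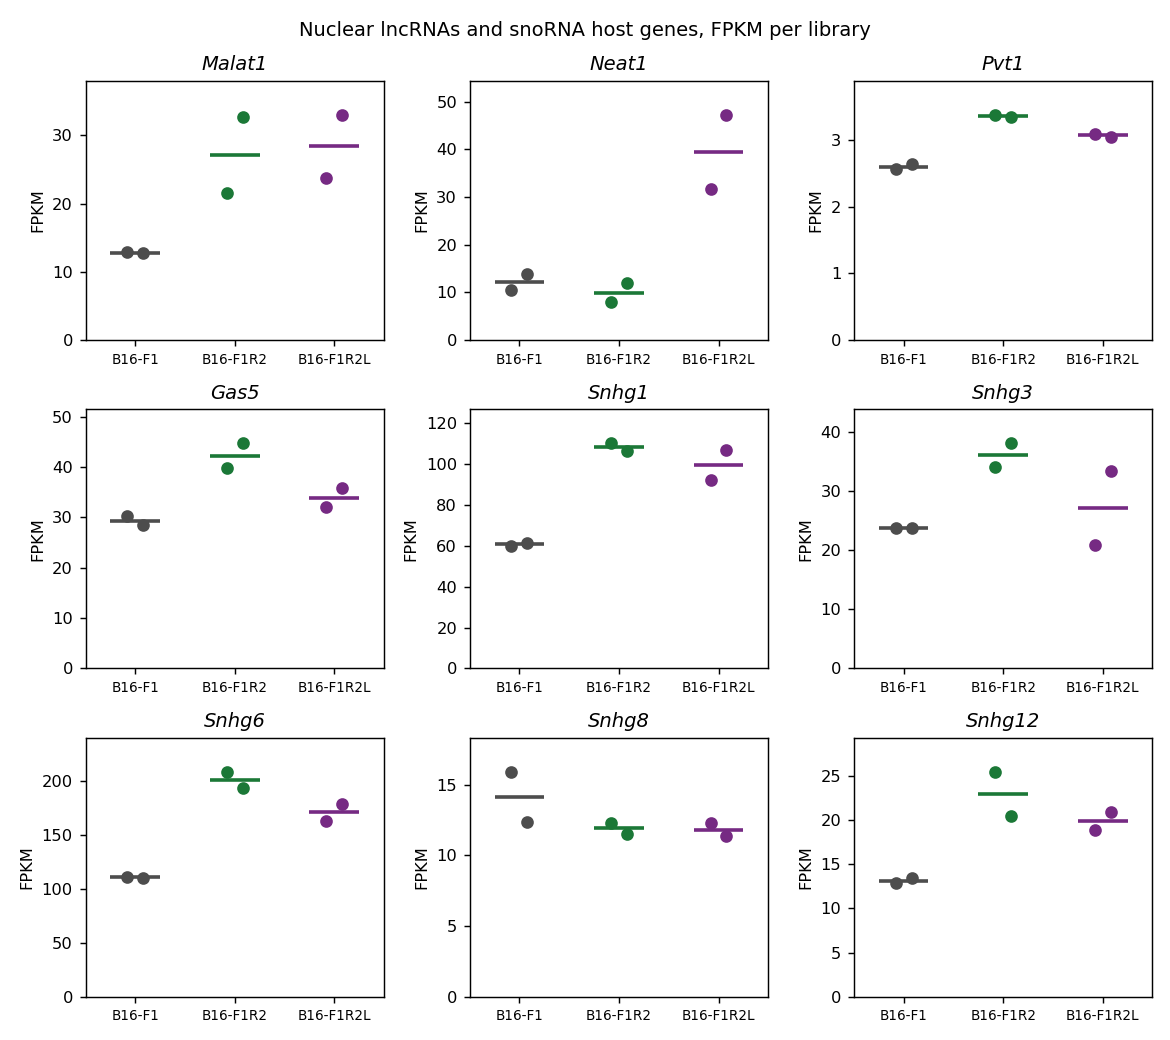
FPKM of each of the 9 genes (vertical axis, from 0) in the 2 libraries of each line (points), with the mean of each line (bar). Neat1 reached 31.7 and 47.2 FPKM in B16-F1R2L against at most 13.8 elsewhere, and Snhg1, Snhg6 and Snhg12 were higher in all 4 libraries of the metastatic lines than in B16-F1.

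Malat1 is annotated on the minus strand of chromosome 19 at 5795690 to 5802671 (NCBIM37, the assembly that mm9 names), with a longest transcript of 6982 bases in 1 exon. Its 3′ end is not made by ordinary polyadenylation: RNase P cuts the precursor behind an A-rich tract encoded in the genome, which folds into a triple helix with 2 upstream U-rich runs, and the part cut off folds like a tRNA. The tract is shown here because the libraries were made from poly(A)+ RNA. The tract stands once in the gene and is 18 bases long with 16 A. It is printed in capitals within the 108 bases of chr19:5795942-5796049 (minus strand, NCBIM37).
Malat1 3′ tract: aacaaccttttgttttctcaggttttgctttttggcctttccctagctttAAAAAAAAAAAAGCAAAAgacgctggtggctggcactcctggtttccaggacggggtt

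Malat1 measured 12.8 and 12.7 FPKM for B16-F1, 21.5 and 32.7 FPKM for B16-F1R2, then 23.8 and 33.0 FPKM for B16-F1R2L. Both metastatic lines lay above B16-F1 in every library and overlapped each other. The difference was 1.05 ± 0.22 (SE) for B16-F1R2 (limma, adjusted p = 0.0071) and 1.13 ± 0.22 for B16-F1R2L (adjusted p = 0.0053). These correspond to ratios of the mean FPKM of 2.12 and 2.22. Between the metastatic lines the difference was 0.08 ± 0.22 (adjusted p = 0.82), and it was -0.22 without the first B16-F1R2 library and -0.16 without the second B16-F1R2L library.

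Neat1, next to Malat1 and on the same strand, is annotated at 5824708 to 5845478 of chromosome 19 (NCBIM37), where its longest transcript runs for 20771 bases without an intron. It has a short polyadenylated form and a long form that ends in a genome-encoded A-rich stretch and builds the paraspeckle; the gene-level FPKM does not separate them. Neat1 measured 10.5 and 13.8 FPKM for B16-F1, 7.88 and 12 FPKM for B16-F1R2, then 31.7 and 47.2 FPKM for B16-F1R2L. The libraries of B16-F1 and B16-F1R2 overlapped, and both B16-F1R2L libraries lay above them. Neat1 was higher in B16-F1R2L by 1.67 ± 0.26 against B16-F1 (limma, adjusted p = 0.0021) and by 1.98 ± 0.26 against B16-F1R2 (adjusted p = 0.0076), a ratio of mean FPKM of 3.98. This was the 35th highest log2 difference of the 11379 tested genes in the comparison of the metastatic lines. For B16-F1R2 against B16-F1 it was -0.31 ± 0.26 (adjusted p = 0.35), from -0.61 without the second B16-F1R2 library to -0.012 without the first.

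Malat1 was called higher in both metastatic lines and Neat1 in B16-F1R2L. The ratio of Neat1 to Malat1 FPKM, looked at after the values were seen and given without a test, was 0.819 and 1.09 for B16-F1, 0.366 and 0.366 for B16-F1R2, then 1.33 and 1.43 for B16-F1R2L. The ratio was alike within a metastatic line although the levels were not. In B16-F1R2 both RNAs were higher in the second library than in the first, by 0.60 on the log2 scale each, and 97.8% and 97.7% of tested genes differed less between these 2 libraries than Malat1 and Neat1. In B16-F1R2L the second library was higher by 0.47 for Malat1 and by 0.57 for Neat1. In B16-F1, Malat1 differed by -0.016 and Neat1 by 0.39.

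RNAs without a poly(A) tail are given as values beside these results. The 28 replication-dependent histone genes with a row summed to between 58.3 and 73.7 FPKM in each of the 6 libraries. Most of that sum was Hist1h1c, at 27.4 to 30.9 FPKM, and Hist1h2bc, at 18.5 to 27.1 FPKM, and 15 of the 28 stayed under 1 FPKM in every library, so the sum describes these 2 genes. Among the histones, 2 of the 8 tested were called higher in B16-F1R2 relative to B16-F1, 1 in B16-F1R2L, no larger a share than the 28.2% and 29.5% of all tested genes. Rpph1, the RNA subunit of RNase P, measured 116 and 93.3 FPKM for B16-F1, 114 and 104 FPKM for B16-F1R2, then 62.9 and 48.2 FPKM for B16-F1R2L. It was lower in B16-F1R2L by -0.92 ± 0.15 against B16-F1 (limma, adjusted p = 0.0026) and -0.98 ± 0.15 against B16-F1R2 (adjusted p = 0.010). Rpph1 and Neat1 thus moved in opposite directions in B16-F1R2L. The part of the capture of tail-less RNA in the values of Malat1 and Neat1 was not tested.

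The genes around Malat1 and Neat1 that are reported here did not share their differences. Frmd8, on the far side of Neat1, was lower than in B16-F1 by -0.22 ± 0.07 (limma, adjusted p = 0.042) in B16-F1R2 and by -0.43 ± 0.07 (adjusted p = 0.0029) in B16-F1R2L. Ltbp3, a binding protein of latent TGF-beta, and Slc25a45, Sssca1 and Dpf2 were called in no comparison. An antisense gene, Gm20417, shares 425 exonic bases with Malat1 and has no row in the expression data; the library kit kept the strand, but the strand setting of the counting is not given in the sources used here. No annotated gene overlaps Neat1.

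**Figure D2:**
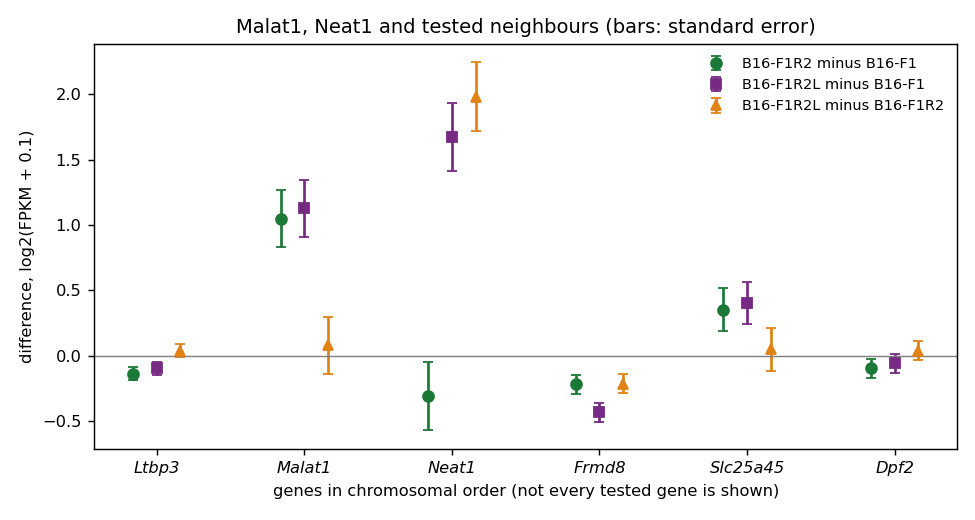
Difference on the log2(FPKM + 0.1) scale with its standard error for Malat1, Neat1 and 4 tested neighbours in chromosomal order, in each of the 3 comparisons (symbols). Malat1 lies above 1 in both comparisons with B16-F1, Neat1 above 1.6 in both comparisons of B16-F1R2L, and Frmd8 below 0 in all 3.

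Of 15 paraspeckle protein genes, 5 were called higher and 2 lower in B16-F1R2 relative to B16-F1, and 3 higher and 5 lower in B16-F1R2L. Read against the 28.2% higher and 27.2% lower of all tested genes in the first comparison, and 29.5% and 27.1% in the second, these counts do not set the list apart, and the 5 fell to 1 without either B16-F1 library or without the first B16-F1R2 library, and to 2 without the second. The 5 lower in B16-F1R2L fell to 3 without either B16-F1 library or without the second B16-F1R2L library. Between the metastatic lines 2 were higher in B16-F1R2L and 4 lower, beside 12.1% and 10.5% of all tested genes, and these counts ran from 0 to 3 and from 1 to 5 over the alternatives. Taf15, an RNA-binding protein of the FET family, was higher in each metastatic line, in B16-F1R2 by 0.19 (adjusted p = 0.023), where Neat1 was not called: it measured 66.6 and 69.6 FPKM for B16-F1, 77.3 and 78.5 for B16-F1R2, then 98.3 and 107 for B16-F1R2L, a difference between the metastatic lines of 0.40 ± 0.05 (limma, adjusted p = 0.0082). Hnrnph3 was 0.29 ± 0.08 higher in B16-F1R2L relative to B16-F1R2 (adjusted p = 0.047), whereas Rbmx was lower by -0.38 ± 0.04 (adjusted p = 0.0052). Rbm14, needed for paraspeckle assembly, was lower than in B16-F1 by -0.32 ± 0.08 (adjusted p = 0.013) in B16-F1R2, where Neat1 was not called. In B16-F1R2L it was lower by -0.59 ± 0.08 (adjusted p = 0.00090).

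Of 17 genes of speckle and SR proteins, which share the speckle with Malat1, 4 were higher and 2 lower in B16-F1R2 relative to B16-F1, and 2 were higher and 6 lower in B16-F1R2L, shares at or below those of all tested genes except for the 6 lower. Without the first B16-F1 library these counts were 2 and 2, then 0 and 3. Acin1, a splicing coactivator, was 0.43 ± 0.07 higher in B16-F1R2 (limma, adjusted p = 0.0026). Srrm2, a scaffold protein of speckles, was lower by -0.29 ± 0.05 in both metastatic lines (adjusted p = 0.0026 and 0.0027). The median difference of the list was 0.0091 and -0.035, close to that of all tested genes.

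The snoRNA hosts are shown next by how their transcripts begin, since a start of C followed by pyrimidines is the mark of 5′ terminal oligopyrimidine RNAs, whose translation follows growth signals through mTOR. RefSeq start sites (GRCm38.p6) were at hand for 6 of the 9 genes, Malat1 included. Each line gives 25 bases before the start and 35 from it, on the gene's strand, with the longest pyrimidine run that begins within 3 bases of the start in capitals.
Gas5, second start, chr1:161035141-161035200 (+): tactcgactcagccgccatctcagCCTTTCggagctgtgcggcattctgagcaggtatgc
Snhg1, chr19:8723462-8723521 (+): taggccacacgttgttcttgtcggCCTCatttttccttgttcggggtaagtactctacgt
Snhg3, chr4:132353652-132353711 (-): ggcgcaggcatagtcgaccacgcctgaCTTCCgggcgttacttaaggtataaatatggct
Snhg8, chr3:123508302-123508361 (-): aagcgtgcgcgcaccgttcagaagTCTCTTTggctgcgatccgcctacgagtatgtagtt
Snhg12, chr4:132308653-132308712 (+): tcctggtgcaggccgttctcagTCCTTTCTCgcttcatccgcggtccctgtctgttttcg
Malat1, for contrast, chr19:5802638-5802697 (-): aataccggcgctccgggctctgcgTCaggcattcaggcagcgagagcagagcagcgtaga

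A C at the annotated start followed by at least 4 pyrimidines was found for Gas5, at the second of its 2 starts, and for Snhg8. Of all 32851 RefSeq start sites, 2.51% had it, and of the 60 start sites of ribosomal protein genes outside the host list 21.7%. It was found in 1 of 14 start sites of other noncoding hosts and 0 of 21 of protein-coding hosts. A run of at least 5 pyrimidines beginning within 3 bases of the start was found for Gas5, Snhg3, Snhg8 and Snhg12. These are 4 of the 7 start sites of the genes described. It was found in 24 of the 60 ribosomal protein start sites and in 16.6% of all start sites. The other noncoding hosts had it in 3 of 14 and the coding hosts in 3 of 21. Snhg1 has a run of 4 within 3 bases of its start, followed after 1 base by a further pyrimidine run, and Malat1 one of 2. A match is a description of the letters at an annotated start, and the starts used in these cells were not measured. Snhg8 and Gas5 share this start and differed in their values, as given below.

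Snhg1 hosts 8 annotated snoRNA genes and lies at chr19:8797986-8800932 on the plus strand (NCBIM37). It measured 60.1 and 61.6 FPKM for B16-F1, 110 and 106 FPKM for B16-F1R2, then 92.5 and 107 FPKM for B16-F1R2L. All 4 metastatic libraries lay above B16-F1, with overlap between the metastatic lines. Snhg1 was 0.83 ± 0.07 higher in B16-F1R2 (limma, adjusted p = 1.6e-04) and 0.71 ± 0.07 higher in B16-F1R2L (adjusted p = 3.2e-04). Slc3a2, the amino acid transporter heavy chain that starts from the opposite strand next to Snhg1, differed in another way: it was lower in B16-F1R2 by -0.21 ± 0.05 (adjusted p = 0.0075) and higher in B16-F1R2L by 0.57 ± 0.05 (adjusted p = 1.2e-04).

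Snhg6, which hosts Snord87 and lies beside Cops5, was the most abundant of the 9 genes per length in every library. It measured 111 and 111 FPKM for B16-F1, 209 and 193 FPKM for B16-F1R2, then 163 and 179 FPKM for B16-F1R2L. The 3 lines did not overlap, in the order B16-F1, B16-F1R2L, B16-F1R2. Snhg6 was 0.86 ± 0.06 higher in B16-F1R2 (limma, adjusted p = 7.5e-05) and 0.63 ± 0.06 higher in B16-F1R2L (adjusted p = 2.7e-04). Between the metastatic lines it was lower in B16-F1R2L by -0.23 ± 0.06 (adjusted p = 0.039), a call that was lost without any 1 of the 6 libraries, where the adjusted p ranged up to 0.168, and also with rescaling to the same sum (adjusted p = 0.18) or quantile normalization (adjusted p = 0.25). Its neighbour Cops5, a subunit of the COP9 signalosome, rose by 0.54 ± 0.04 (adjusted p = 9.1e-05) and 0.40 ± 0.04 (adjusted p = 3.3e-04) against B16-F1.

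Snhg12 lies at chr4:131864593-131866939 on the plus strand (NCBIM37) and holds 4 annotated snoRNA genes. It measured 12.8 and 13.4 FPKM for B16-F1, 25.5 and 20.5 FPKM for B16-F1R2, then 18.9 and 20.9 FPKM for B16-F1R2L. It was 0.79 ± 0.11 higher in B16-F1R2 (limma, adjusted p = 0.0013) and 0.60 ± 0.11 higher in B16-F1R2L (adjusted p = 0.0042). Snhg1, Snhg6 and Snhg12 followed each other closely: the ratio of Snhg1 to Snhg6 FPKM lay between 0.529 and 0.597 in the 6 libraries and that of Snhg12 to Snhg1 between 0.192 and 0.231.

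Gas5, whose RNA builds up in growth-arrested cells and which hosts 9 annotated snoRNA genes, lies at chr1:162964553-162968670 on the plus strand (NCBIM37). It measured 30.2 and 28.5 FPKM for B16-F1, 39.9 and 44.7 FPKM for B16-F1R2, then 32 and 35.9 FPKM for B16-F1R2L. The lines did not overlap, and B16-F1R2 was highest. Gas5 was 0.52 ± 0.08 higher in B16-F1R2 relative to B16-F1 (limma, adjusted p = 0.0020), and the difference was 0.21 ± 0.08 in B16-F1R2L (adjusted p = 0.066). The latter lay between 0.13 and 0.29 with 1 library left out, and was called without the first B16-F1R2L library (adjusted p = 0.041), with rescaling to the same sum (0.31, adjusted p = 0.039) and without small RNA genes (adjusted p = 0.040). Gas5 was lower in B16-F1R2L relative to B16-F1R2 by -0.32 ± 0.08 (adjusted p = 0.038), again a call lost without any 1 of the 6 libraries (adjusted p up to 0.143) and with rescaling to the same sum (adjusted p = 0.17).

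Snhg3, a host of the pseudouridylation-type snoRNAs Snora73a and Snora73b, lies at chr4:131903929-131909601 on the minus strand (NCBIM37). It shares 135 exonic bases with Rcc1 on the same strand, so reads there could be counted for either. On the opposite strand Gm17300 shares 705 exonic bases with Snhg3 and has no row in the expression data. The strand setting of the counting is not given here either. Snhg3 measured 23.8 and 23.7 FPKM for B16-F1, 34.1 and 38.0 FPKM for B16-F1R2, then 20.9 and 33.4 FPKM for B16-F1R2L. The B16-F1R2L libraries stood on both sides of B16-F1. Snhg3 was 0.60 ± 0.20 higher in B16-F1R2 relative to B16-F1 (limma, adjusted p = 0.041), which was not called without any 1 library of these lines (adjusted p up to 0.17). In B16-F1R2L the difference was 0.15 ± 0.20 (adjusted p = 0.54), and it was -0.19 without the second B16-F1R2L library and 0.49 without the first, which was then called (adjusted p = 0.0064). Rcc1, the exchange factor of Ran, measured 39.9 and 41.0 FPKM for B16-F1 and 47.8 and 43.4 for B16-F1R2 (0.17 ± 0.07, adjusted p = 0.085).

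Snhg8 stood apart from the other hosts. It measured 15.9 and 12.4 FPKM for B16-F1, 12.3 and 11.5 FPKM for B16-F1R2, then 12.3 and 11.4 FPKM for B16-F1R2L. The higher B16-F1 library lay above all others and the lower one just above the metastatic lines. The differences were -0.24 ± 0.12 for B16-F1R2 (limma, adjusted p = 0.14) and -0.25 ± 0.12 for B16-F1R2L (adjusted p = 0.13). These differences rest on the first B16-F1 library: without it they were -0.056 (adjusted p = 0.65) and -0.067 (adjusted p = 0.59), whereas without the second one Snhg8 was called lower in both, by -0.42 (adjusted p = 0.019) and by -0.43 (adjusted p = 0.017). The ratio of Snhg8 to Snhg6 FPKM was 0.144 and 0.112 for B16-F1 and between 0.0591 and 0.0751 in the metastatic lines.

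**Figure D3:**
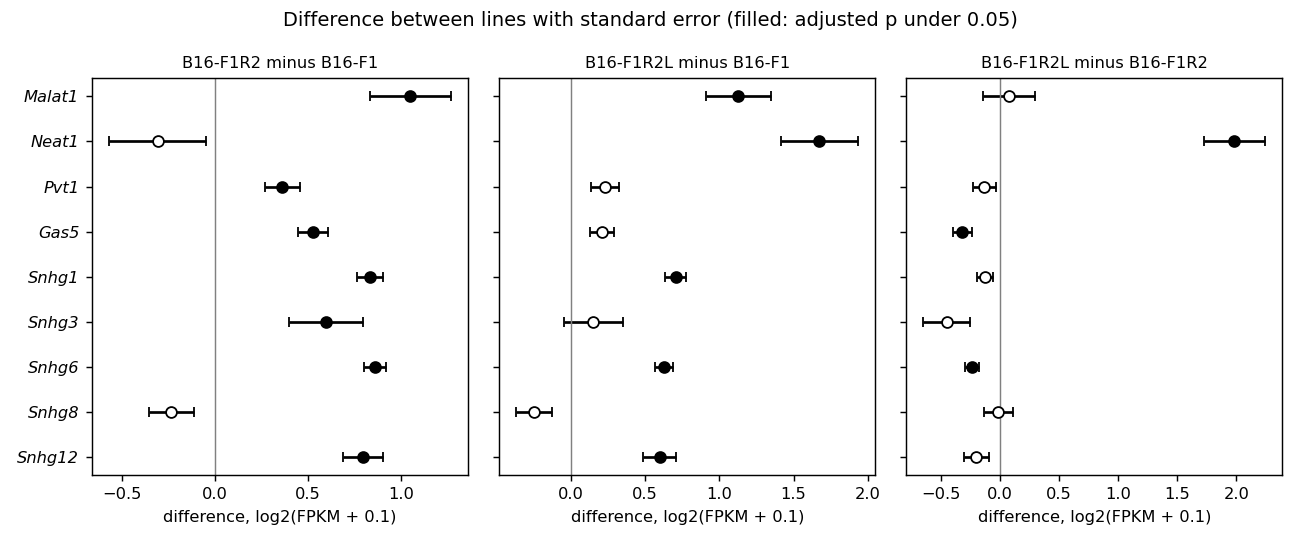
Difference between lines on the log2(FPKM + 0.1) scale (horizontal axis) with its standard error (bars) for the 9 genes in the 3 comparisons; filled points have an adjusted p under 0.05 in limma. The fills count 7, 5 and 3 genes, and the only point near 2 is Neat1 in B16-F1R2L minus B16-F1R2.

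Over the 6 snoRNA hosts, 5 were called higher in B16-F1R2 and 3 in B16-F1R2L relative to B16-F1, with median differences of 0.70 and 0.40, where 28.2% and 29.5% of all tested genes were called higher. The 5 include Snhg3, whose call was lost in 7 of 17 alternatives. Between the metastatic lines the 6 differences lay from -0.45, for Snhg3, to -0.01. That of Snhg3 ran from -0.78 to -0.11 with 1 library left out. Of the 6, 2 were called lower, beside 10.5% of all tested genes. Both of these calls, Gas5 and Snhg6, were lost without any 1 library, and Snhg8 lay above 0 in 3 alternatives, at 0.098 with rescaling to the same sum. Of the other noncoding host RNAs, 7 of the 9 in the table were tested, 3 were called higher and 0 lower in each comparison with B16-F1, and 2 were lower in B16-F1R2L relative to B16-F1R2. The 3 higher in B16-F1R2L fell to 0 without the second B16-F1 library. Snhg5 measured 16.6 and 17.6 FPKM for B16-F1, 32.1 and 31.7 for B16-F1R2, then 16.8 and 20.2 for B16-F1R2L. It was 0.90 ± 0.09 higher in B16-F1R2 relative to B16-F1 (limma, adjusted p = 3.3e-04) and lower by -0.79 ± 0.09 in B16-F1R2L relative to B16-F1R2 (adjusted p = 0.0052). Snhg4, a further host, was higher by 0.78 ± 0.12 (adjusted p = 0.0020) and 0.56 ± 0.12 (adjusted p = 0.0077) against B16-F1.

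Of a list of 25 other long noncoding RNAs, Malat1, Neat1 and Pvt1 not among them, 7 were tested. Of these 0 were higher and 3 lower in B16-F1R2 relative to B16-F1: Crnde by -0.54 ± 0.10 (limma, adjusted p = 0.0044), 2900097C17Rik by -0.51 ± 0.07 (adjusted p = 9.0e-04) and Tug1 by -0.30 ± 0.10 (adjusted p = 0.036). In B16-F1R2L 1 was higher and 1 lower than in B16-F1. The median difference of the 7 was -0.30 in B16-F1R2, and 3 of them lay above 0 there without being called. The count of lower ones ran from 2 to 4 over the alternatives, and the median was 0.039 over the 18 tested with no filter on low values. Of all tested genes 28.2% were higher and 27.2% lower.

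Some of the hosted snoRNAs have rows of their own. Only spliced or precursor RNA with a poly(A) tail should enter such libraries, and FPKM of genes shorter than a fragment move in large steps, so the values are given as they stand. Snord47 and Snord22 are box C/D snoRNAs, which guide 2′-O-methylation and are bound by fibrillarin, Nop56 and Nop58. Their annotated sequences follow because, of the hosted box C/D snoRNAs with rows, these were called higher in both metastatic lines. Snora44, given below and not of this type, was called so as well. Capitals mark TGATGA (box C) and the last CTGA (box D), and for Snord22 TGATGA was not found.
Snord47, in Gas5, chr1:162968213-162968289 (+), NCBIM37: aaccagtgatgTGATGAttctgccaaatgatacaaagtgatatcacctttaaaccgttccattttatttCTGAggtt
Snord22, in Snhg1, chr19:8800356-8800481 (+), NCBIM37: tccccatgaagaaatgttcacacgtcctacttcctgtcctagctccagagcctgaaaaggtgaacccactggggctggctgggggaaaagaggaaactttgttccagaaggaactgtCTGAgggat

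Snord47 measured 2081 and 1622 FPKM for B16-F1, 3620 and 3442 FPKM for B16-F1R2, then 3143 and 2839 FPKM for B16-F1R2L. It was 0.94 ± 0.12 higher in B16-F1R2 (limma, adjusted p = 0.0010) and 0.70 ± 0.12 higher in B16-F1R2L (adjusted p = 0.0036) than in B16-F1, in the order of its host Gas5. Snord22 measured 31.6 and 83.5 FPKM for B16-F1, 344 and 234 for B16-F1R2, then 194 and 146 for B16-F1R2L. It was higher by 2.46 ± 0.44 (adjusted p = 0.0037) and 1.71 ± 0.44 (adjusted p = 0.016) against B16-F1. Snord87, beside Snhg6 in the RefSeq gene order, was listed at 0 and 208 FPKM for B16-F1, at 0 in both libraries of B16-F1R2, then at 200 and 365 FPKM for B16-F1R2L. Its 2 B16-F1 libraries thus stood far apart. It was called higher in B16-F1R2L relative to B16-F1R2 (adjusted p = 0.045), with no fold given against values of 0, and in neither comparison with B16-F1. Snord47 and Snord22 lie within exons of annotated intron-retaining host transcripts, so reads of the host and of the snoRNA are not independent. In Snhg12, Snora44 was listed at 0 in both B16-F1 libraries and at 20.5 and 38.0 FPKM for B16-F1R2, then 20.3 and 17.6 for B16-F1R2L. It was called higher in both metastatic lines, with no fold given against values of 0, and passed the filter through those libraries alone. Snora61 and Snord99 of this host were listed at 0 in all 6. Snora16a of the same host was listed at 0 and 31.9 FPKM for B16-F1, 73.8 and 55.5 for B16-F1R2, then 0 and 26.5 for B16-F1R2L, and was called in no comparison.

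**Figure D4:**
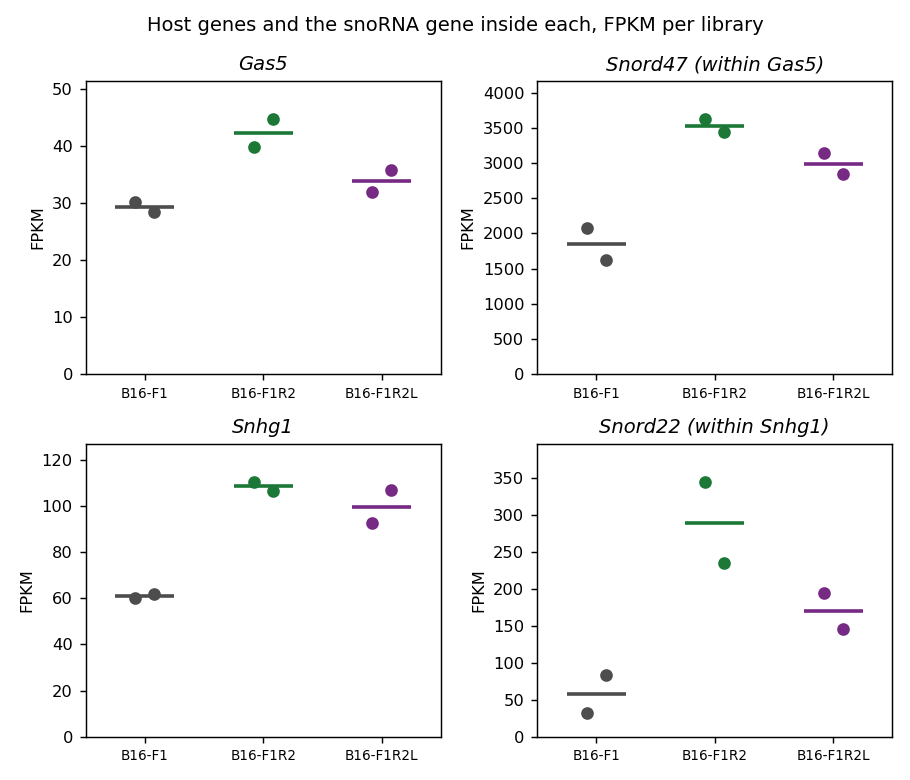
FPKM (vertical axis, from 0) of the host genes Gas5 and Snhg1 (left) and of Snord47 and Snord22 inside them (right) in the 2 libraries of each line (points), with line means (bars). In all 4 panels the metastatic lines lie above B16-F1, and B16-F1R2 has the highest mean.

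RNA of most genes whose proteins bind and assemble snoRNAs was higher in B16-F1R2 as well. Of 18 such genes, 16 were called higher and 0 lower in B16-F1R2 relative to B16-F1, with a median difference of 0.33, beside the 28.2% and 27.2% of all tested genes. Nop58, the core protein of box C/D particles and itself a snoRNA host, measured 75.4 and 73.1 FPKM for B16-F1, 145 and 141 for B16-F1R2, then 111 and 108 for B16-F1R2L. It rose by 0.94 ± 0.04 in B16-F1R2 (limma, adjusted p = 1.1e-05) and by 0.56 ± 0.04 in B16-F1R2L (adjusted p = 8.8e-05). Nolc1, a chaperone of snoRNA particles, rose by 0.59 ± 0.06 in B16-F1R2 (adjusted p = 4.3e-04) and was lower by -0.52 ± 0.06 in B16-F1R2L relative to B16-F1R2 (adjusted p = 0.0060). In B16-F1R2L 6 of the 18 were higher and 3 lower than in B16-F1 (4 to 10 and 0 to 3 over the alternatives), and 12 were lower and 0 higher than in B16-F1R2; of all tested genes 29.5% and 27.1% were called in the first of these comparisons, and 10.5% were lower in the second. The count of 12 fell to 6 with each library rescaled to the same sum, and to 3 without the first B16-F1R2 library.

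Of 30 protein-coding snoRNA hosts, many of which encode ribosomal proteins, 13 were higher and 1 lower in B16-F1R2 relative to B16-F1, beside 28.2% and 27.2% of all tested genes. In B16-F1R2L 6 were higher and 8 lower than in B16-F1, and 1 was higher and 15 lower than in B16-F1R2. The 8 lower fell to 1 and 2 without the first and the second B16-F1 library and to 4 without either B16-F1R2L library. The 15 fell to 1 without the first B16-F1R2 library, to 3 without the second B16-F1R2L library and to 7 without the first one or without either B16-F1 library. Of 58 tested ribosomal protein genes outside that list, 17 were higher and 5 lower in B16-F1R2, and 7 were higher and 17 lower in B16-F1R2L, against B16-F1. Between the metastatic lines 22 of these 58 were lower and 0 higher, with a median of -0.24, the same as that of the coding hosts, where 10.5% of all tested genes were called lower. The 22 fell to 0 without the first B16-F1R2 library or without the second B16-F1R2L library, to 1 without either B16-F1 library and to 7 without the first B16-F1R2L library, and rose to 36 without the second B16-F1R2 library. The shares higher in B16-F1R2 and lower in B16-F1R2L were close to the 28.2% and 27.1% of all tested genes. Over the alternatives the ribosomal counts ran from 10 to 28 higher and 0 to 9 lower in B16-F1R2, and from 4 to 14 higher and 6 to 24 lower in B16-F1R2L. The 17 higher became 10 without either B16-F1 library and 27 without the second B16-F1R2 library, and the 17 lower became 8 and 6 without the first and the second B16-F1 library and 10 without the second B16-F1R2L library. With rescaling to the same sum, B16-F1R2L had 11 coding hosts higher and 5 lower, and 14 ribosomal protein genes in each direction, so neither list had a firm direction there. Nop56, Nop58 and Dkc1 stand in both the host and the particle lists.

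**Figure D5:**
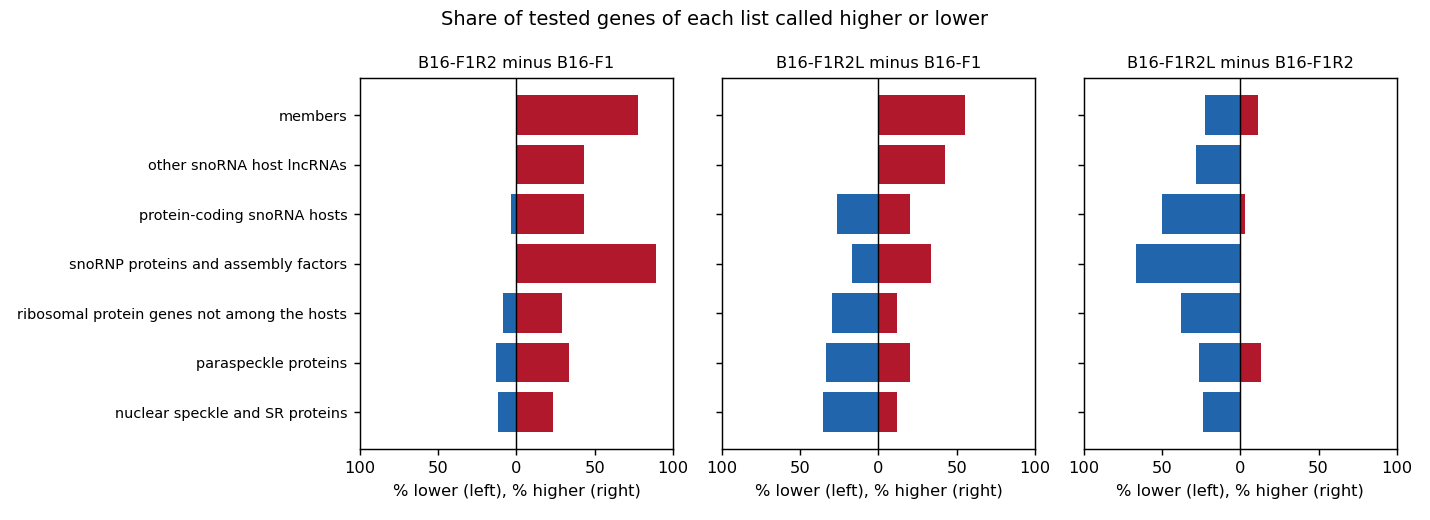
Share of the tested genes of each list called higher (right, red) or lower (left, blue) in the 3 comparisons, in percent of the genes tested; "members" are the 9 genes described. In B16-F1R2 minus B16-F1, 7 of 9 members, 3 of 7 other host RNAs and 16 of 18 snoRNA particle genes were called higher, and in B16-F1R2L minus B16-F1R2 15 of 30 coding hosts and 12 of 18 particle genes were called lower, counts that fell to 1 and 3 without the first B16-F1R2 library.

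Nonsense-mediated decay removes the spliced RNA of many snoRNA hosts. Of 15 genes of this pathway, 5 were higher and 4 lower in B16-F1R2 relative to B16-F1, and 4 were higher and 5 lower in B16-F1R2L, close to the shares of all tested genes (28.2% and 27.2%, then 29.5% and 27.1%). In B16-F1R2 the counts ran from 2 to 6 higher and 0 to 4 lower over the alternatives; without any 1 library of the lines compared 2 were higher, and 0 were lower without the second B16-F1 library. In B16-F1R2L they ran from 3 to 6 higher and 2 to 5 lower. Upf3b, an exon junction adaptor of the pathway, was higher in both metastatic lines, by 0.74 ± 0.08 (limma, adjusted p = 3.6e-04) and 0.62 ± 0.08 (adjusted p = 7.6e-04). Smg6, the endonuclease of the pathway, was lower in B16-F1R2 by -0.33 ± 0.08 (adjusted p = 0.015).

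Pvt1 lies 3′ of Myc on chromosome 15 at 61869542 to 62209651 on the plus strand (NCBIM37), a span of 340110 bases, and is known for frequent gain together with Myc in tumours. It had the lowest level of the 9 genes, with 2.56 and 2.64 FPKM for B16-F1, 3.38 and 3.35 FPKM for B16-F1R2, then 3.09 and 3.04 FPKM for B16-F1R2L. The lines did not overlap. Pvt1 was 0.36 ± 0.09 higher in B16-F1R2 relative to B16-F1 (limma, adjusted p = 0.018), a call lost under quantile normalization (0.15, adjusted p = 0.23) and without any 1 library of these 2 lines (adjusted p up to 0.076). In B16-F1R2L the difference was 0.23 ± 0.09 (adjusted p = 0.079). It was called with rescaling to the same sum (0.33, adjusted p = 0.045) and with eBayes without a trend (adjusted p = 0.014), and was -0.15 under quantile normalization.

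Myc, the growth regulator beside it, measured 17.3 and 18.0 FPKM for B16-F1, 34.7 and 42.1 FPKM for B16-F1R2, then 40.9 and 36.0 FPKM for B16-F1R2L. It rose by 1.11 ± 0.10 in B16-F1R2 and by 1.12 ± 0.10 in B16-F1R2L (limma, adjusted p = 2.4e-04 in both). The ratio of Pvt1 to Myc FPKM fell from 0.148 and 0.147 for B16-F1 to values between 0.0756 and 0.0973 in the metastatic lines, described without a test. On the other side of Myc, Fam84b was lower by -1.68 ± 0.11 (adjusted p = 5.2e-05) and -1.42 ± 0.11 (adjusted p = 1.0e-04), so neighbours in this stretch moved in opposite directions. Of the Myc network, 9 genes were tested, 2 were higher and 4 lower in B16-F1R2, and 2 higher and 5 lower in B16-F1R2L, beside 28.2% and 27.2%, then 29.5% and 27.1%, of all tested genes. Of the Myc antagonists, Mxd4 was lower by -1.0 ± 0.07 in B16-F1R2 (adjusted p = 6.6e-05) and by -0.71 ± 0.07 in B16-F1R2L (adjusted p = 2.8e-04). Mnt was lower by -0.60 ± 0.07 in B16-F1R2 (adjusted p = 4.4e-04) and by -0.33 in B16-F1R2L (adjusted p = 0.0057). Mxi1 alone of the antagonists was called higher, by 0.37 ± 0.07 in B16-F1R2 (adjusted p = 0.0058) and 0.74 ± 0.07 in B16-F1R2L (adjusted p = 3.0e-04).

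Over all 9 genes, the 40 other tested neighbours, 3 on each side, were called higher in 10 cases and lower in 10 in B16-F1R2 against B16-F1, with a median difference of -0.0073. In B16-F1R2L they were called higher in 12 cases and lower in 10. These counts are about the shares of all tested genes, 28.2% and 27.2%, then 29.5% and 27.1%.

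The genes whose profile over the 6 libraries was most like each of the 9 were found by the root mean square difference of the centred log2 values, a description in which the points share line and library. For Snhg6 it was 0.041 to Dpf1 and 0.045 to Npm1, the abundant nucleolar protein nucleophosmin, which measured 541 and 524 FPKM for B16-F1, 942 and 894 for B16-F1R2, then 769 and 796 for B16-F1R2L. Snhg12 also had Dpf1 first (0.069), and Snhg1 was nearest to Phip (0.052) and Sugt1 (0.053). Among the 9 genes, Snhg1 and Snhg6 were 0.055 apart, against 0.81 for Malat1 and Neat1. Gas5 was nearest to Cep85l (0.040) and Gm5113 (0.046), Snhg3 to Gm6251 (0.11) and Rsg1 (0.12), and Snhg8 to Zswim4 (0.036) and Gpatch3 (0.053). Pvt1 was nearest to Orc2 (0.014), a subunit of the origin recognition complex, and Ptges3 (0.018).

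Malat1 was nearest to 1700063D05Rik (0.14) and Styx (0.15), and Neat1 to Cyb5r2 (0.24) and Pck2 (0.27). Pck2, the mitochondrial phosphoenolpyruvate carboxykinase, measured 17.9 and 18.7 FPKM for B16-F1, 13.8 and 14.3 for B16-F1R2, then 43.0 and 47.7 for B16-F1R2L. Like Neat1 it was highest in B16-F1R2L. Neat1 had the weakest match of the 9 genes by this measure, beside a spread of its own profile of 0.91.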

How the data were processed

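Poly(A)+ RNA of 6 libraries was sequenced with a stranded kit in single-end reads of 50 bases. The authors aligned the reads with TopHat2 2.0.10, Bowtie 1.0.0 and SAMtools 0.1.1.9 (per the submitters' processing notes) to mm9, allowing 2 mismatches and 20 positions per read. They deposited 1 table of FPKM values, in which replicates are not pooled. The gene annotation is not given in the sources used here. FPKM of multimapping or shared reads depend on how these were assigned: of the stretches of 50 bases in the annotated exons of the genes described, between 0.206% (Gas5) and 1.69% (Snhg12) also stand elsewhere in the genome, as far as positions were at hand.

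FPKM are not counts, so log2(FPKM + 0.1) of genes that reached 1 FPKM in 2 or more libraries was fitted with limma 3.58.1 in R 4.3.3 (eBayes with a trend, all 6 libraries, no block, Benjamini-Hochberg). A fold change on this scale understates changes of low genes. With 2 libraries against 2, an exact permutation test cannot go below p = 0.333 (two-sided). The fit was also run on simulated data with independent noise in each library. This checks the code and cannot address effects shared by libraries or technical replicates. Other steps ran in Python 3.11.15 (numpy 2.4.6, pandas 2.3.3, matplotlib 3.10.9). Positions came from NCBIM37 with GENCODE M1, where 7 of the 9 genes have 1 position; start sites came from RefSeq (GRCm38.p6). Replicate numbers come from the labels, which describe no pairing. All 9 genes are named; of each list, at most the 4 largest called differences per comparison, the 2 most alike genes and 3 tested neighbours on each side could be named. The genes and lists were chosen with earlier results of these data known. A neighbouring gene is not reported here.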

Additional observations from a re-analysis of the deposited data

How the results depend on the processing

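Each result was recomputed under 17 alternatives (16 for Pvt1, which the filter at 5 FPKM removed). The counts of the 9 genes called higher stayed within 1.5 times the reported ones in all of them, and Malat1, Snhg1, Snhg6 and Snhg12 kept their calls against B16-F1 in all, as Neat1 did in B16-F1R2L. Counts called lower were less stable. In B16-F1R2 against B16-F1 the count was 1 with the replicate block and 0 to 1 with 1 library left out. In B16-F1R2L against B16-F1 it was 0 to 1 with 1 library left out. In B16-F1R2L against B16-F1R2 it was 0 without a filter on low values, with libraries rescaled to a sum of 1000000, with quantile normalization, with eBayes without a trend and with the 4 libraries of these lines alone. It was 1 with the replicate block and 0 to 1 with 1 library left out. The number of all genes called between the metastatic lines, 2568, was 1666 without the filter, 1518 with the 4 libraries alone and 437 to 1895 with 1 library left out, lowest without the first B16-F1R2 library. Under rescaling the median over all genes went from 0.017 to 0.12 in B16-F1R2L against B16-F1 and from 0.022 to 0.13 against B16-F1R2, and differences under it are to be read relative to these.

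Signs turned for Pvt1 in B16-F1R2L against B16-F1 with quantile normalization (-0.15), for Snhg8 between the metastatic lines with rescaling (0.098), and with 1 library left out for Snhg3 in B16-F1R2L against B16-F1 (-0.19 to 0.49), Malat1 between the metastatic lines (-0.22 to 0.38) and Snhg8 there (-0.063 to 0.042). The cause was not tested. Of 456 differences of single genes, 404 kept direction and side of the threshold, 35 lost the call, 10 gained one and 7 changed sign. Libraries with the same replicate number did not deviate together (correlations of 0.052, -0.10 and 0.079 over 11379 genes), so the numbers were not taken as pairs; with the replicate block Neat1 was called lower in B16-F1R2 (-0.31, limma adjusted p = 0.014) and the call of Snhg6 between the metastatic lines was lost (adjusted p = 0.056). With 2 libraries a line the spread rests on few values. Among the 7 genes with an annotated length, each at its longest transcript, Pvt1 had the fewest estimated reads, about 107 to 156.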
